A study of Mus musculus with 20 samples.

Results

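The T cell receptor signalling core was followed as 10 genes in Tregs and CD8+ T cells of the mouse: the CD3 chains Cd3d, Cd3e, Cd3g and Cd247, the kinases Lck and Zap70, the adaptor Lat, and the co-receptor chains Cd4, Cd8a and Cd8b1. They were picked by symbol from the 23992 gene symbols of the files, where they have 17 of 31682 RefSeq transcripts, and each gene was represented by its transcript with the most reads. The RNA came from Tregs of B6-Foxp3EGFP mice, taken with a CD4+ T cell isolation kit and then sorted by the GFP expressed with Foxp3. CD8+ T cells came from C57BL/6J mice and were purified with a CD8+ T cell isolation kit. Both cell types came from spleen and lymph node. The sample records give C57BL/6N as the strain of all samples, and an age is not analysed here. Each cell type was left unstimulated at 0 hr or was given 1 of 2 cytokines at 200 nM, wild-type IL-2 or its variant IL-2-REH, a partial agonist, and was collected after 90 min or 4 hr. Tregs had 15 libraries, 3 in each of 5 groups, and CD8+ T cells had 5 libraries, 1 in each group. Unstimulated cells were not cultured without cytokine for the same times, so cytokine and time in culture cannot be told apart. The labels do not say that replicates came from separate mice, so p-values measure only the spread between these libraries.

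The T cell receptor has no enzyme of its own. Its antigen-binding chains depend on the CD3 chains, whose cytoplasmic tails carry the tyrosine motifs that Lck phosphorylates, with Cd247 (the zeta chain) contributing the most of them. Lck is brought to the receptor by CD4 or by the CD8 alpha chain. Zap70 docks on the phosphorylated motifs and phosphorylates Lat, the membrane scaffold from which phospholipase C, Ras and the other branches start. IL-2 signals through a different receptor, to JAK kinases and STAT5, and Tregs, CD4+ cells that carry the high-affinity IL-2 receptor, use both inputs.

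Reads on genes numbered between 20201392 and 63903764 per Treg library and between 38201667 and 45189835 per CD8+ library. Levels are given in RPKM, reads scaled to transcript length and to how many reads a library has mapped, so they may be compared between genes. The labelled identities held: Foxp3 was at 65.2 to 252 RPKM in Tregs and at 0.482 to 0.999 RPKM in CD8+ T cells. Among unstimulated Tregs, replicate 1 stood apart, being the lowest of the 3 for 9 of the 10 genes (all but Cd8b1), and results that rest on it are given with and without it. In Tregs the 5 libraries numbered 3, 1 in each group, held the most B cell, neutrophil and erythroid RNA (neutrophil markers summed to 55.9 to 229 RPKM, against 0.898 to 5.34 RPKM in the others).

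Genes for the CD3 gamma, delta and epsilon chains lie side by side on chromosome 9 (GRCm38.p6), with Cd3g at chr9:44969572-44980431 on the minus strand, Cd3d at chr9:44981769-44987052 on the plus strand and Cd3e at chr9:44998735-45009663 on the minus strand. Cd3g and Cd3d are transcribed away from each other from starts separated by a gap of 1337 bases. Cd8b1 (chr6:71322788-71337492) and Cd8a (chr6:71373427-71379171) are neighbours on the plus strand, 35934 bases apart, and Cd4 (chr6:124864693-124888247, minus strand) is far from them on the same chromosome. Cd247 is at chr1:165779952-165871153, Zap70 at chr1:36761798-36782821, Lck at chr4:129548344-129573641 and Lat at chr7:126363827-126369705. Reads were counted on exons, and overlaps with other annotated genes concern Cd3e, Cd247, Lck, Zap70 and Lat.

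The stretches upstream of the starts are shown for genes whose levels varied together across Treg libraries (Cd3g, Cd3d, Lck, Lat) and for Cd247, which varied less with them. Each is the 200 bases before a RefSeq start in GRCm38.p6, read 5′ to 3′ on the strand of the gene. Capitals mark AGGAAG, an extended core of the motif of ETS family factors, and TTCNNNGAA, the palindrome of STAT factors, both searched on both strands. The positions are chr9:44980432-44980631 (minus), chr9:44981586-44981785 (plus), chr4:129573642-129573841 (minus) and chr4:129558373-129558572 (minus) for the 2 starts of Lck, chr7:126369569-126369768 (minus) and chr1:165788481-165788680 (plus).
Cd3g: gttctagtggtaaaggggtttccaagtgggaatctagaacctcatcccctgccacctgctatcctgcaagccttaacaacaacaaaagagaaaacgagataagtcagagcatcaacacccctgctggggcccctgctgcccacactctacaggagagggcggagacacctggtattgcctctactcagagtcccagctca
Cd3d: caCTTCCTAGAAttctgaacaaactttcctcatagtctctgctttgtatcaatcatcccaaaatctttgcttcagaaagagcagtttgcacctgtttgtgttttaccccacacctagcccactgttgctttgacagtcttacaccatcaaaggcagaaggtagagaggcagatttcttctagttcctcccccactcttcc
Lck, upstream start: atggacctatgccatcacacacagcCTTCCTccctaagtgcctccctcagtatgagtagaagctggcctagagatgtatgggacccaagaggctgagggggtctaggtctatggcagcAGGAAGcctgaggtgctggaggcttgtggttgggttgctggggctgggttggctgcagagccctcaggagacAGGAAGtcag
Lck, downstream start: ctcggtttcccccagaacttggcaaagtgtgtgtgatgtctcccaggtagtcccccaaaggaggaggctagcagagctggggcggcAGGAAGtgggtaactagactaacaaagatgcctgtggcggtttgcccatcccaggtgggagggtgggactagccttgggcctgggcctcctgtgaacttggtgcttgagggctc
Lat: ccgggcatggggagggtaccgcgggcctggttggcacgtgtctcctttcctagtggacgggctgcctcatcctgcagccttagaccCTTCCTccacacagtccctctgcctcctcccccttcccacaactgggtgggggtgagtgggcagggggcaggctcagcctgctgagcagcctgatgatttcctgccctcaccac
Cd247: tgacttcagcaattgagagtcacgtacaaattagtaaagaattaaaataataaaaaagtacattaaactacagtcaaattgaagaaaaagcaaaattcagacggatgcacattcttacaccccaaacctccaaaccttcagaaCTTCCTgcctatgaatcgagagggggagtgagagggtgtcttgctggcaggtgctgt

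RefSeq entries were matched for 8 of the 10 genes, with 11 starts, and Cd4 and Cd8b1 had no entry. Within 250 bases before the start, AGGAAG was present at 8 of the 11 starts, against 29.5% of all 32851 starts. It was found before Cd247 as well as before Cd3d, Cd3e, Lat, Lck and Zap70, and it was not found before Cd3g and Cd8a. TTCNNNGAA was present at 1 of the 11 starts, that of Cd3d, 197 to 189 bases upstream, where it overlaps an AGGAAG match, and it was present at 7.02% of all starts. TATAAA was at 0 of the 11 starts and at 12.4% of all starts. A match is a description of the letters and does not show that a factor binds.

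**Figure D1:**
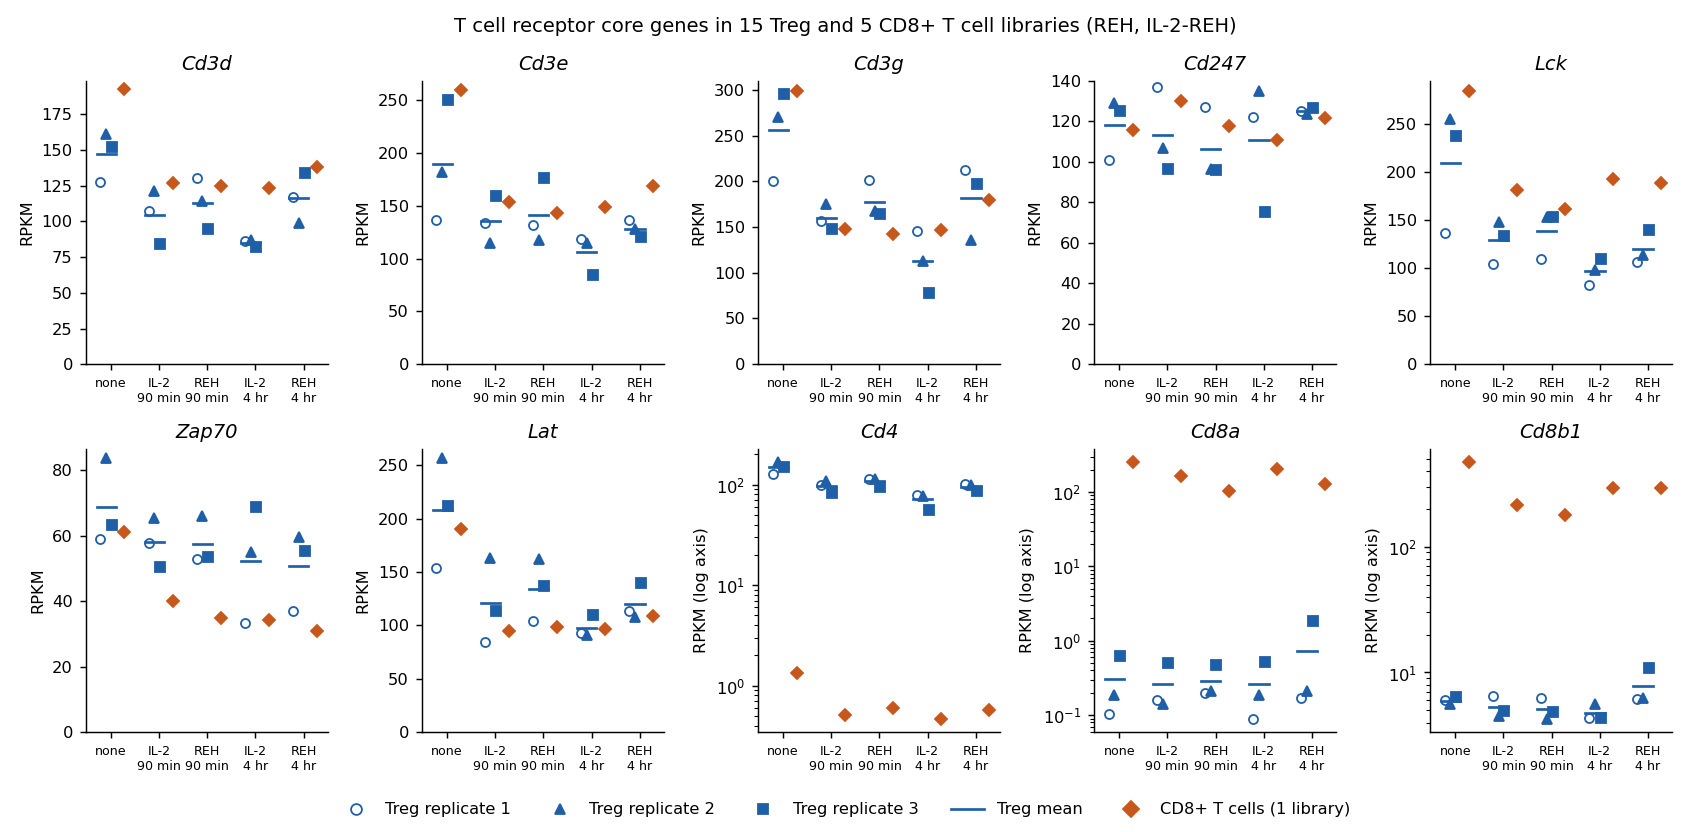
RPKM of the 10 genes (y axis, logarithmic for Cd4, Cd8a and Cd8b1) in unstimulated cells and after either cytokine (REH is IL-2-REH) for 90 min or 4 hr (x axis). Blue symbols are single Treg libraries by replicate number, bars are Treg means and orange diamonds are CD8+ libraries; Cd4 is at 56.4 RPKM or more in all Tregs and at 1.33 RPKM or less in all CD8+ libraries.

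Tregs given IL-2 for 4 hr had less RNA of the CD3 gamma chain and of Cd4 than unstimulated Tregs. Cd3g fell by 1.11 ± 0.25 on the log2 scale and Cd4 fell by 0.99 ± 0.17 (log2 fold change ± SE, 3 libraries against 3, adjusted p = 0.0357 and 0.00875 by edgeR's quasi-likelihood test with Benjamini-Hochberg adjustment). These were the 2 of the 10 genes that passed the test, and of all 15009 genes tested 2.27% did, 1.1% being lower. All 10 fitted changes were negative, with a median of -0.74, against a median of -0.0017 and 50.1% negative over all genes. RPKM ranges of the 3 libraries against 3 did not overlap for 6 of the 10 genes, Cd3d, Cd3e, Cd3g, Lck, Lat and Cd4, all lower after IL-2, and 9.15% of 10473 genes were lower in this way. Less RNA per cell and fewer of the cells that hold it cannot be told apart in these bulk samples. Summed macrophage markers, 9 of 10 of which were in the files, also went down, from 20.2 to 118 RPKM in unstimulated Tregs to 10.7 to 31.9 RPKM after IL-2 for 4 hr, with C1qa at 0 in 1 Treg library, and their part in the result was not tested.

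Cd3g, the gamma chain, was at 201, 270.2 and 296 RPKM in unstimulated Tregs, and at 146, 113 and 78.2 RPKM after IL-2 for 4 hr. After IL-2 for 90 min it was at 157, 175 and 147 RPKM. The unstimulated libraries were above all 6 IL-2 libraries, and at 4 hr the 3 libraries were below the 3 at 90 min. After IL-2-REH it was at 202, 167.1 and 163.9 RPKM at 90 min and at 212, 136 and 197 RPKM at 4 hr, overlapping with unstimulated Tregs. At 4 hr of IL-2 the decrease was -0.45, -1.26 and -1.90 on the log2(RPKM + 1) scale in pairs 1, 2 and 3. It was called in 3 of 9 fits that left out 1 replicate number or 1 library of the groups compared, with adjusted p from 0.00882 to 0.744. It lost the call without unstimulated replicate 2 (adjusted p = 0.0768) or 3 (adjusted p = 0.143) and without IL-2 replicate 2 (adjusted p = 0.113) or 3 (adjusted p = 0.133).

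Cd3d, the delta chain, was at 127, 160.96 and 152 RPKM in unstimulated Tregs and at 86.5, 86.7 and 82.4 RPKM after IL-2 for 4 hr. The 4 hr libraries were close to each other (SD 2.45 RPKM) and below every other Treg library except replicate 3 at 90 min of IL-2. At 90 min of IL-2 Cd3d was at 107, 122 and 84.3 RPKM, again below all 3 unstimulated libraries. IL-2-REH gave 130.3, 114 and 94.4 RPKM at 90 min and 117, 98.6 and 134 RPKM at 4 hr, which overlapped with the unstimulated range. The fitted change at 4 hr of IL-2 was -0.71 ± 0.19 with an adjusted p of 0.0662 by edgeR's quasi-likelihood test. With the replicate number as a block, since same-numbered libraries deviated together, it was -0.71 with an adjusted p of 0.0449.

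Cd3e, the epsilon chain, was at 136, 182 and 251 RPKM in unstimulated Tregs and at 119, 115 and 84.4 RPKM after IL-2 for 4 hr. These ranges did not overlap, but the gap between them was smaller than the spread of the unstimulated libraries. After IL-2 for 90 min Cd3e was at 133, 115 and 159.5 RPKM, and after IL-2-REH at 132, 118 and 176 RPKM at 90 min and at 136, 128 and 120.1 RPKM at 4 hr. All of these 3 groups overlapped with unstimulated Tregs. The fitted change at 4 hr of IL-2, -0.77 ± 0.27, did not pass the test (adjusted p = 0.156, edgeR's quasi-likelihood test with Benjamini-Hochberg adjustment; 0.0789 with the block).

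For Cd247, the zeta chain, all Treg groups overlapped. It was at 101, 129 and 125 RPKM in unstimulated Tregs, at 137, 107 and 96.7 RPKM after IL-2 for 90 min and at 122, 135 and 75.4 RPKM after 4 hr. The library at 75.4 RPKM, replicate 3, was the lowest, and the other 2 at 4 hr were within or above the unstimulated range. IL-2-REH gave 127, 96.5 and 96.1 RPKM at 90 min and 125, 124 and 127 RPKM at 4 hr. The fitted change at 4 hr of IL-2 was -0.04 ± 0.18, with a 95% interval from -0.42 to 0.34. Its sign turned with the longest transcript in place of the most read one (0.27).

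The files list 5 transcripts of Cd247, and the counting gave most reads to NM_001113391, which has a last exon of its own. The largest of the other 4 transcripts could account for only part of its reads, so that at least 43.4% to 78.7% of them (median 65.7%, 15 Treg libraries) fell on bases that the other transcripts lack. In CD8+ T cells this share was 65.0% to 68.5%. The other members had near-equal transcripts (Lck with 3, Cd8a with 2) or a lone transcript.

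Lck, the kinase that starts signalling, was at 136, 255 and 237 RPKM in unstimulated Tregs and at 82.4, 97.9 and 109.8 RPKM after IL-2 for 4 hr. After IL-2 for 90 min it was at 105, 148 and 134 RPKM, and after IL-2-REH at 109.6, 153 and 154 RPKM at 90 min and 106, 114 and 139.8 RPKM at 4 hr. Replicates 2 and 3 of unstimulated Tregs were above all 12 stimulated libraries, whereas replicate 1 lay among them. The fitted change at 4 hr of IL-2 was -1.01 ± 0.28 (adjusted p = 0.0833, edgeR's quasi-likelihood test with Benjamini-Hochberg adjustment), and with the replicate block -0.995 (adjusted p = 0.00788). For IL-2-REH at 4 hr it was -0.77 ± 0.28 (adjusted p = 0.241), and -0.75 with the block (adjusted p = 0.0490).

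Lat, the scaffold, was at 154, 257 and 212 RPKM in unstimulated Tregs and at 92.5, 90.6 and 109.6 RPKM after IL-2 for 4 hr. At 90 min of IL-2 it was at 84.8, 162.9 and 114 RPKM, and with IL-2-REH at 104.5, 162.2 and 137 RPKM at 90 min and at 113, 108 and 139 RPKM at 4 hr. Both cytokines at 4 hr gave libraries that were all below the unstimulated range, whereas the 90 min groups overlapped with it. The fitted changes at 4 hr were -0.98 ± 0.30 for IL-2 (adjusted p = 0.111) and -0.75 ± 0.30 for IL-2-REH (adjusted p = 0.286), both by edgeR's quasi-likelihood test. The block brought the first to an adjusted p of 0.0358.

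Zap70 had the lowest median of the 7 genes that both cell types share. It was at 59.0, 83.8 and 63.4 RPKM in unstimulated Tregs, at 57.8, 65.5 and 50.4 RPKM after IL-2 for 90 min and at 33.3, 54.9 and 68.9 RPKM after 4 hr. IL-2-REH gave 52.8, 65.9 and 53.6 RPKM at 90 min and 37.0, 59.6 and 55.3 RPKM at 4 hr. All groups overlapped, and the 4 fitted changes against unstimulated Tregs were between -0.43 and -0.09 with adjusted p of 0.526 or more (edgeR's quasi-likelihood test).

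Cd4, which defines the lineage from which Tregs come and recruits Lck, had the most regular decrease. It was at 129, 168 and 148 RPKM in unstimulated Tregs, at 99.8, 109.5 and 83.1 RPKM after IL-2 for 90 min and at 79.4, 77.7 and 56.4 RPKM after 4 hr. IL-2-REH gave 114, 114 and 95.2 RPKM at 90 min and 100.5, 98.3 and 86.0 RPKM at 4 hr. Every stimulated library was below every unstimulated one, and after IL-2 the 4 hr libraries were also below those at 90 min. The fitted changes were -0.46 ± 0.17 for IL-2 and -0.32 ± 0.17 for IL-2-REH at 90 min, and -0.99 ± 0.17 and -0.64 ± 0.17 at 4 hr. Of these, the IL-2 change at 4 hr passed edgeR's quasi-likelihood test. It did so in 7 of 9 fits that left out a library or a replicate number. The adjusted p of that test was 0.402 without replicate 2 and 0.288 without replicate 3, where 3 of 15197 and 11 of 15309 genes were called. DESeq2 also called it after IL-2 at 90 min (adjusted p = 0.0377, where it called 4.39% of genes) and after IL-2-REH at 4 hr (adjusted p = 0.0016, 4.32%).

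With the replicate block, 5 of the 10 genes were called at 4 hr of IL-2 (Cd3d, Cd3g, Lck, Lat and Cd4), where 6.92% of all genes were. DESeq2 and limma on log2(RPKM + 1) called 5 as well, where 6.88% and 2.54% of the genes they tested were called. Without unstimulated replicate 1, edgeR called 4 of the 10 (Cd3d, Cd3g, Lck and Cd4; 8.87% of all genes), and without unstimulated replicate 2 or 3 it called Cd4 alone (0.887% and 0.465% of all genes). Cd4 was also the 1 gene of the 10 called without IL-2 replicate 2 or 3, where 145 of 15493 and 156 of 15433 genes were called. Without the 5 Treg libraries numbered 2 or the 5 numbered 3, 0 of the 10 were called. In those fits 3 of 15197 and 11 of 15309 genes were called in all. For IL-2-REH at 4 hr the block called Lck (3.03% of all genes).

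**Figure D2:**
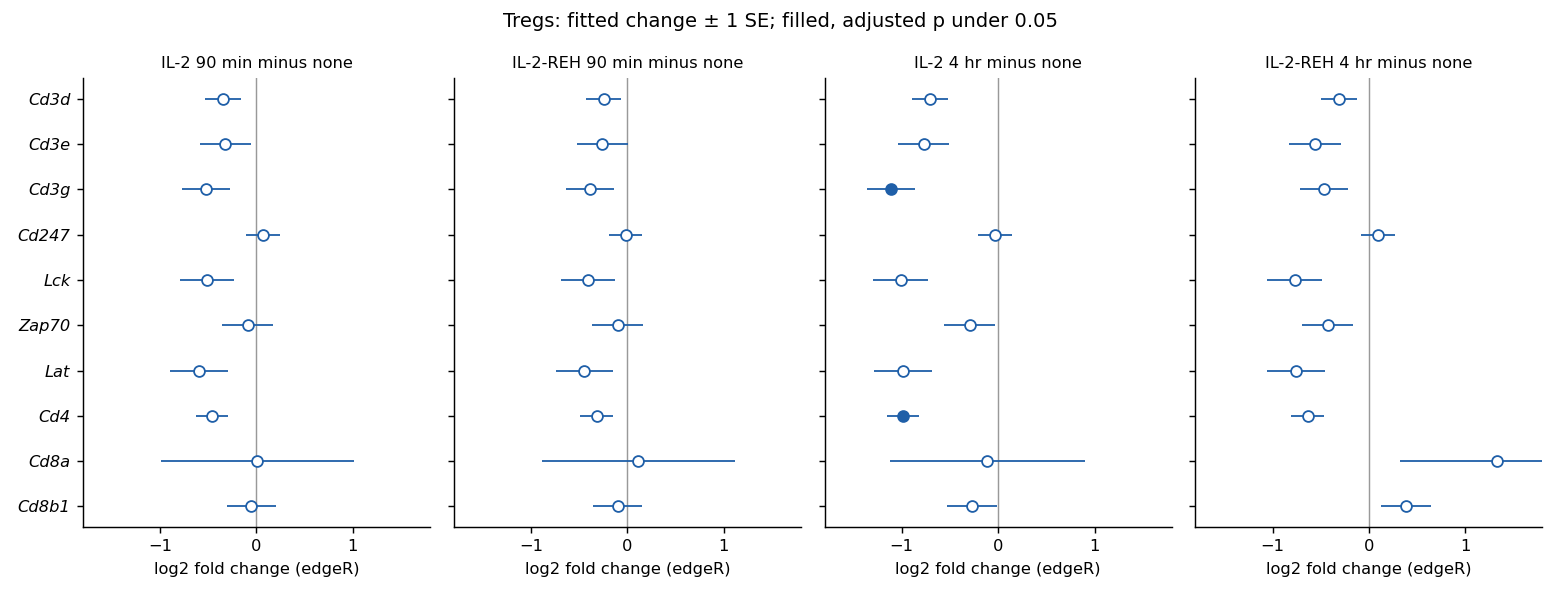
Log2 fold change in Tregs against unstimulated cells (x axis) for the 10 genes (y axis), from edgeR over 15 libraries, with 1 panel per cytokine and time; bars are 1 SE and filled points have an adjusted p under 0.05. Cd3g and Cd4 at 4 hr of IL-2 are the filled points, and Cd8a has the widest bars.

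In the other comparisons with unstimulated Tregs, 0 of the 10 genes passed edgeR's quasi-likelihood test. After IL-2 for 90 min, where 0.853% of all genes were called, 8 of the 10 changes were negative with a median of -0.34, and 1 of the 10 genes, Cd4, had an unadjusted p under 0.05. Cd3d, Cd3g and Cd4 did not overlap with unstimulated Tregs, all lower, as 4.5% of genes were. After IL-2-REH for 90 min, where 0.0933% were called, 9 of the 10 were negative with a median of -0.25, 0 had an unadjusted p under 0.05, and Cd4 alone did not overlap (3.26% of genes were lower in this way). After IL-2-REH for 4 hr, where 0.313% were called, 7 of the 10 were negative with a median of -0.45, 3 had an unadjusted p under 0.05, and Lat and Cd4 did not overlap (6.12% of genes). On the RPKM scale the median of all genes was itself shifted by -0.11 after IL-2 for 90 min, against which the median of the 10 genes was -0.47.

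IL-2-REH left more of these RNAs than IL-2 at 4 hr in point estimates, but the difference did not pass the test for any of the 10 genes (0 called of 10 and 0.0267% called of all genes, edgeR's quasi-likelihood test; 2 of the 10 had an unadjusted p under 0.05, and the block, DESeq2 and limma called 0). The differences, IL-2-REH minus IL-2, were 0.65 for Cd3g (95% interval 0.11 to 1.18), 0.39 for Cd3d (-0.0048 to 0.79), 0.35 for Cd4 (-0.0068 to 0.71), 0.24 for Lck (-0.36 to 0.84), 0.23 for Lat (-0.41 to 0.87), 0.21 for Cd3e (-0.36 to 0.78), 0.13 for Cd247 (-0.25 to 0.51) and -0.13 for Zap70 (-0.70 to 0.43) on the log2 scale. Of the low CD8 chains, Cd8b1 differed by 0.66 (0.10 to 1.21) and Cd8a by 1.44 (-0.75 to 3.64), and without replicate 3 of IL-2-REH at 4 hr these values were 0.27 and -0.62. Cd3d, Cd3e, Cd4 and Cd8b1 were higher with IL-2-REH without overlap of the 3 libraries against 3, as 6.31% of genes were. In same-numbered pairs, Lck was higher with IL-2-REH by 0.36, 0.21 and 0.35 and Lat by 0.29, 0.25 and 0.34. At 90 min the cytokines were nearer to each other: 0 of the 10 genes were called (0.0133% of all), 0 had an unadjusted p under 0.05, the largest difference of the 10 was 0.15 for Lat (-0.49 to 0.79), and the ranges of all 10 genes overlapped. The change of this difference from 90 min to 4 hr was called for 0 of the 10 genes and 0 of all genes (0% of 15009), with 0 of the 10 and 47 of all genes at an unadjusted p under 0.05, and DESeq2 and limma called 0 of the 10.

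Between 90 min and 4 hr of IL-2 all 10 changes were negative with a median of -0.37, of which those of Cd247, Zap70, Lat and Cd8a turned positive in some fits without a library or replicate number, and 0 of the 10 passed edgeR's test, as did 0% of all genes, while 2 of the 10 had an unadjusted p under 0.05. Cd3g and Cd4 were lower at 4 hr without overlap, where 10.4% of genes were. DESeq2 called 1 of the 10, Cd4, and 3.1% of all genes. Between the same times of IL-2-REH, 7 of the 10 were negative, 0 passed (0% of all genes) and 0 had an unadjusted p under 0.05.

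Cd8a and Cd8b1, the chains of the co-receptor of cytotoxic T cells, were low in Tregs but not equally so. Cd8a had 13 to 348 reads, 0.0879 to 1.84 RPKM, and Cd8b1 had 203 to 930 reads, 4.25 to 10.8 RPKM. The highest value of both was in replicate 3 of IL-2-REH at 4 hr, the library that also held the most neutrophil and B cell marker RNA among Tregs (229 and 18.4 RPKM), and the part of other cells in it was not tested. Without that library the fitted change of Cd8a at 4 hr of IL-2-REH was -0.73, against 1.33 ± 1.01 with it. In every Treg library Cd8b1 exceeded Cd8a, by a factor of 5.91 to 58.4 (median 29.8), whereas in CD8+ T cells the factor was 1.29 to 2.23 (median 1.73). At the highest ratio of the CD8+ libraries, the Cd8a of Tregs would go with 0.196 to 4.09 RPKM of Cd8b1, and the measured values exceeded this by 3.18 to 6.76 RPKM. Whether that ratio applies to the Cd8a reads of Tregs was not tested. No other annotated gene overlaps Cd8b1, and the neighbour Cd8a is 35934 bases away. The source of the Cd8b1 reads in Tregs was not tested, and the Treg ratios rest on 13 to 348 Cd8a reads.

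**Figure D3:**
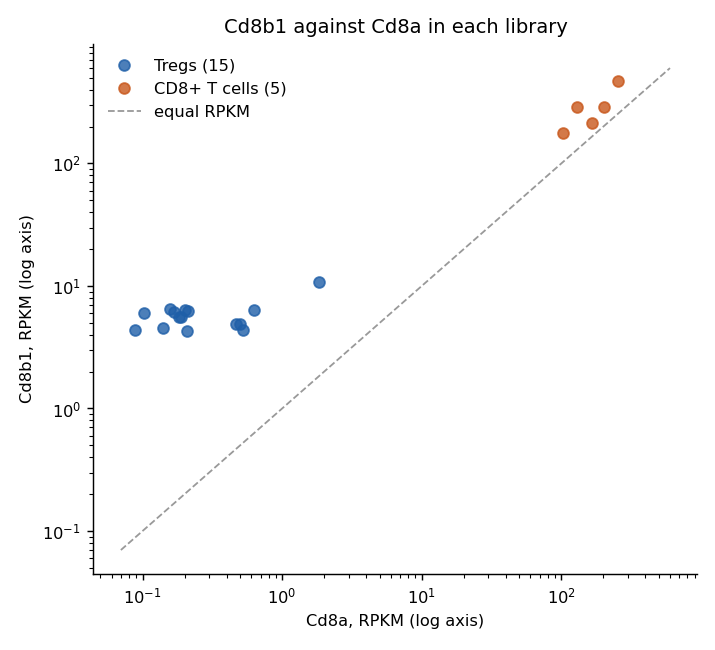
Cd8b1 (y axis) against Cd8a (x axis), both in RPKM on logarithmic axes, in 15 Treg and 5 CD8+ libraries; the dashed line marks equal RPKM. CD8+ libraries lie just above the line and Treg libraries lie further above it, at Cd8b1 values of 4.25 to 10.8 RPKM.

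In CD8+ T cells, with 1 library per group and hence no test, 9 of the 10 genes, all but Cd247, were lower in all 4 stimulated libraries than in the unstimulated one. All 4 comparisons use that same unstimulated library, and Cd4 was at only 0.463 to 1.33 RPKM. How many of all genes were lower in all 4 was not counted. The median log2 ratios of all genes were -0.04 and -0.12 after IL-2 and IL-2-REH for 90 min, and -0.07 and -0.02 after 4 hr. Cd3g was at 299 RPKM unstimulated, at 147 and 143 RPKM after IL-2 and IL-2-REH for 90 min, and at 147 and 179 RPKM after 4 hr. Lat was at 191 RPKM unstimulated, then at 94.7, 98.6, 96.9 and 109 RPKM in the same order. From 90 min to 4 hr, both genes differed by -0.01 to 0.33 on the log2 scale with either cytokine. Lck went from 285 RPKM to 181, 162.1, 192 and 189 RPKM. Cd3e went from 259.6 RPKM to 153, 143, 149 and 169 RPKM, and Cd3d from 193 RPKM to 127, 125, 123.1 and 138 RPKM. Zap70 went from 61.0 RPKM to 39.9, 34.7, 34.4 and 30.9 RPKM here. Cd247 was at 116 RPKM unstimulated and 130.4, 118, 111 and 122 RPKM stimulated.

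Cd8a, the chain that binds Lck, was at 256 RPKM unstimulated, at 165.2 and 203 RPKM after IL-2 for 90 min and 4 hr, and at 103 and 130.4 RPKM after IL-2-REH. Both IL-2-REH libraries were below both IL-2 libraries. Cd8b1 went from 472 RPKM to 213 and 289.9 RPKM after IL-2 and to 179 and 290.1 RPKM after IL-2-REH, with nearly equal values for both cytokines at 4 hr. For IL-2-REH against IL-2, the log2 ratio of Cd8a was -0.67 at 90 min and -0.64 at 4 hr, and 0 of 9 genes passed an absolute log2 ratio of 1, as 0.868% and 2.23% of genes did.

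Against the unstimulated CD8+ library, Cd3g, Lat and Cd8b1 passed a log2 ratio of -1 after IL-2 for 90 min, which are 3 of 9 genes, Cd4 being below the minimum mean of 1 RPKM (7.24% of 10021 genes passed in either direction, 4.43% lower). After IL-2-REH for 90 min 3 of 9 passed, Cd3g, Cd8a and Cd8b1 (8.57% of all genes), after IL-2 for 4 hr 1 of 9, Cd3g (4.71%), and after IL-2-REH for 4 hr 0 of 9 (6.11%). Several of these values were near the threshold: Cd3g was at -1.01, -1.06 and -1.02, and Lat at -1.002, -0.94 and -0.97 in the first 3 comparisons. The medians of the 9 genes were -0.65, -0.85, -0.70 and -0.70 in the 4 comparisons, against -0.04, -0.12, -0.07 and -0.02 over all genes. The unstimulated libraries enter every one of these comparisons, in Tregs as in CD8+ T cells.

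Set side by side at 4 hr of IL-2, Cd3g was at -1.11 in Tregs and -1.02 in CD8+ T cells, Lat at -0.98 and -0.97, Cd3e at -0.77 and -0.80, Cd3d at -0.71 and -0.64, Lck at -1.01 and -0.56 and Cd247 at -0.04 and -0.07 (fitted log2 fold change and log2 ratio of RPKM + 1). Zap70 was at -0.29 and -0.81. Whether the cell types differ in these changes was not tested, since CD8+ T cells had 1 library a group.

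**Figure D4:**
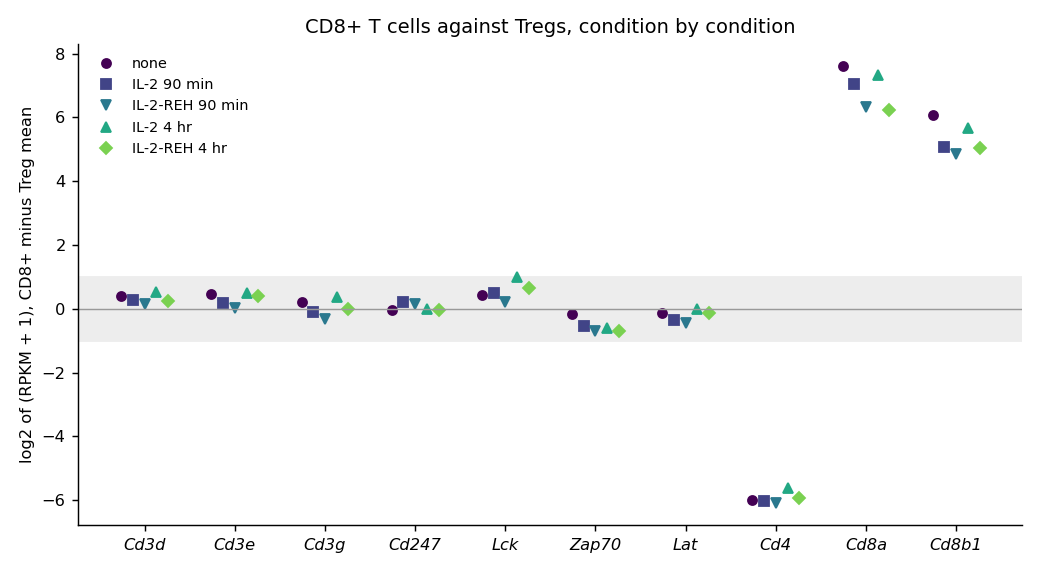
Log2 of RPKM + 1 in the CD8+ library minus the mean of the 3 Treg libraries of the same condition (y axis) for the 10 genes (x axis), with 1 symbol per condition; the grey band spans -1 to 1. Cd4, Cd8a and Cd8b1 are outside the band in all 5 conditions and the 7 shared genes are inside it.

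Between cell types at matched conditions, the co-receptors separated and the shared machinery did not. The separation of the co-receptors was set in advance, since the cells were purified as CD4+ and as CD8+ T cells. Mouse line and sorting by GFP also differed with the cell type, so their parts cannot be told apart. Cd4 was 61.2-fold lower in CD8+ T cells (49.3 to 68.2-fold over the 5 conditions), with 97 to 253 reads against 5769 to 38029 in Tregs. Cd8a was 121-fold higher in CD8+ T cells (75.6 to 196-fold) and Cd8b1 40.8-fold (29.2 to 67.9-fold), all on the RPKM + 1 scale, which understates the difference of genes near 0. These 3 of the 10 genes were past a log2 ratio of 1 in all 5 conditions without overlap of the 5 and 15 libraries, and 4.99% of 10457 genes were. The mean log2 ratios of the 7 others, CD8+ minus Treg, were 0.56 for Lck, 0.31 for Cd3d, 0.30 for Cd3e, 0.05 for Cd247, 0.03 for Cd3g, -0.21 for Lat and -0.54 for Zap70, all with overlapping ranges. The ratio of Zap70 to Lck was 0.267 to 0.627 (median 0.431) in 15 Treg libraries and 0.164 to 0.221 (median 0.214) in 5 CD8+ libraries, without overlap. The ratios of Cd3d, Cd3g and Cd247 to Cd3e and of Cd247 to Lck did overlap between the cell types. How many ratios of other genes would not overlap was not counted.

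The order of the median levels in Tregs was Cd3g (167.1 RPKM), Lck (134), Cd3e (132), Cd247 (124), Cd3d (114), Lat (114), Cd4 (99.8), Zap70 (57.8), Cd8b1 (5.601) and Cd8a (0.201). Neighbours from Cd3g down to Cd4 overlapped widely over the 15 libraries, Zap70 (33.3 to 83.8 RPKM) overlapped with Cd4 (56.4 to 168 RPKM), and Cd8b1 and Cd8a were apart from them and from each other. In CD8+ T cells Cd8b1 led (289.9 RPKM), before Lck (189), Cd8a (165.2), Cd3e (153), Cd3g (147), Cd3d (127), Cd247 (118), Lat (98.6), Zap70 (34.7) and Cd4 (0.571). Here Zap70 and Cd4 were each apart from their neighbours, and the others overlapped with theirs.

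Across the 15 Treg libraries, Cd3d, Cd3e, Cd3g, Lck, Lat and Cd4 went up and down together, with Pearson's r of 0.51 to 0.95 on log2(RPKM + 1) (median 0.73 over 15 pairs of genes). Cd247 was less tied to these 6 (-0.09 to 0.49). Zap70 was less tied to most of them (0.08 to 0.67), but its values with Lck (0.67) and Lat (0.61) were within the range of the 6. The 6 are also the genes that were lower without overlap after IL-2 for 4 hr in the same libraries, so their r partly restates that shift. The libraries share groups and replicate numbers, so these values describe the data and were not tested. The genes most like the mean of Cd3d, Cd3e and Cd3g over the 15 libraries were Cdc42ep3 (r = 0.97), Casp1 (0.96), Igbp1 (0.96), Gstk1 (0.94) and Gng10 (0.93), of 10470 genes. Over all 20 libraries, which hold 2 cell types, Cd8a was most like Cd8b1 (0.99), Lcn4 (0.99), Cd163l1 (0.99), Rcn3 (0.99) and Ppic (0.98).

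The genes around the core in the pathway were read from further lists. Among 22 genes that attenuate the receptor, 7 were lower in Tregs after IL-2 for 4 hr and 0 higher by edgeR's quasi-likelihood test, with a list median of -0.74, where 1.1% of all genes were lower. Without unstimulated replicate 1 the counts were 10 lower and 1 higher, where 8.87% of all genes were called in either direction. Without unstimulated replicate 2 or 3 the counts were 2 lower and 0 higher, where 0.887% and 0.465% of all genes were called. The largest changes were those of Sit1, a transmembrane adaptor that restrains the receptor (-1.93 ± 0.27), Lag3, an inhibitory receptor that binds class II MHC (-1.74 ± 0.38), Lax1, an adaptor related to Lat (-1.58 ± 0.30), and Cd5, a receptor whose level follows receptor signalling (-1.07 ± 0.18). Of 9 fits without a library or replicate number, Sit1 and Cd5 were each called in 7, Lax1 in 4 and Lag3 in 3. Sit1 was at 16.0, 27.2 and 25.9 RPKM in unstimulated Tregs and at 6.9, 6.2 and 4.1 RPKM after IL-2 for 4 hr, which did not overlap. Cd5 was at 183, 194 and 161.9 RPKM and then at 78.2, 106 and 62.9 RPKM, also without overlap. After IL-2 for 90 min 2 of the 22 were called (0.853% of all genes), both lower, Sit1 (-1.48 ± 0.26) and Cd5 (-0.91 ± 0.18), after IL-2-REH for 4 hr 1 was (0.313% of all genes), Sit1, which fell by 1.58 ± 0.26, and after IL-2-REH for 90 min 0 were (0.0933% of all genes). Without a library or replicate number, Sit1 was called in 3 and Cd5 in 2 of 9 fits at 90 min of IL-2. At 4 hr of IL-2-REH, Sit1 was called in 2 of 9 such fits. In the CD8+ libraries Sit1 went from 18.7 RPKM to 5.4 and 6.9 RPKM after IL-2 and to 3.1 and 3.4 RPKM after IL-2-REH.

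Of 20 other proximal signalling genes, 1 was higher and 0 lower in Tregs after IL-2 for 4 hr, the Tec family kinase Tec (0.92 ± 0.21), and the median of the list was -0.23. After IL-2 for 90 min 1 was higher, its relative Txk (1.17 ± 0.20), and 0 were lower. In these comparisons Tec was called in 1 and Txk in 3 of 9 fits without a library or replicate number. These single genes stand against 2.27% of all genes called at 4 hr and 0.853% at 90 min, so that the counts are near the share of all genes. Of 19 genes of the downstream branches, 1 passed at 4 hr of IL-2, likewise near that share, Rac2, a small GTPase of blood cells, which fell by 1.37 ± 0.33 and was at 108, 266 and 227 RPKM unstimulated and at 95.1, 83.6 and 39.3 RPKM after IL-2. Its unstimulated replicate 1 was close to the stimulated values, and without it the change was -1.63 ± 0.31 (adjusted p = 0.00752, edgeR's quasi-likelihood test). Rac2 was called in 3 of 9 fits without a library or replicate number. Of 9 tested genes that receptor signalling induces, 0 passed in the 4 comparisons with unstimulated Tregs, where 0.0933% to 2.27% of all genes did (list medians 1.16 and 1.45 at 90 min and -0.34 and -0.14 at 4 hr for IL-2 and IL-2-REH).

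Of 12 lineage factors, Foxp3 was higher after IL-2, by 1.33 ± 0.25 at 90 min and 1.40 ± 0.25 at 4 hr, and Zbtb7b, which directs the CD4 lineage, fell by 1.99 ± 0.42 at 90 min. Of all genes, 0.853% were called at 90 min and 2.27% at 4 hr. Foxp3 was called in 4 of 9 fits without a library or replicate number at 90 min and in 6 of 9 at 4 hr. Zbtb7b was at 6.89, 50.04 and 38.5 RPKM in unstimulated Tregs and at 8.7, 6.6 and 5.7 RPKM after IL-2 for 90 min, so replicate 1 was within the stimulated range. Without that library the change was -2.45 ± 0.15 (adjusted p = 5.51e-06 by edgeR's test), and Zbtb7b was called in 2 of 9 fits without a library or replicate number. With all libraries, the changes of Foxp3 and Zbtb7b passed edgeR's quasi-likelihood test with adjusted p of 0.0217, 0.0110 and 0.0426.

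Between the cell types, the lists differed from the core. Of the 22 attenuators 5 were past the threshold that 4.99% of genes passed, all lower in CD8+ T cells, led by Ctla4 (48.7-fold), Pdcd1 (30.3-fold), Sla (5.10-fold) and Cd5 (4.51-fold). Of the 9 receptor-induced genes 3 were, all lower in CD8+ T cells: Tnfrsf9 (56.5-fold), Nr4a1 (19.1-fold) and Irf4 (5.28-fold). Nr4a1, an immediate early gene of the receptor, was at 51.4 to 736 RPKM in Tregs and at 4.79 to 26.8 RPKM in CD8+ T cells. Cell type, mouse line and sorting by GFP cannot be told apart in these differences. Of the 20 proximal genes, Icos was 8.89-fold lower in CD8+ T cells, and Themis and Tec were 5.35 and 2.57-fold higher, whereas 0 of the 19 downstream genes passed.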

How the data were processed

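RNA of mouse Tregs and CD8+ T cells was sequenced as single-end reads, which the authors mapped to mm10 (GRCm38); per the submitters' processing notes, the tools included Bowtie2 2.2.6, TopHat2 2.1.1, SAMtools 0.1.8, bedtools 2.25.0 and edgeR. For each library the authors deposited the count of uniquely mapped reads on the exons of each RefSeq transcript, without normalization, and the RPKM of each transcript. Whether counting used the strand is not given in the sources used here, so reads in gene overlaps are uncertain.

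Counts of the 15 Treg libraries were tested with edgeR 4.0.16 in R 4.3.3 (TMM, filterByExpr, quasi-likelihood F-test, 1 mean per group), which left 15009 genes, with Benjamini-Hochberg adjustment across all of them (threshold 0.05). Standard errors are the absolute log2 fold change divided by the root of F, and 95% intervals use the t quantile at the degrees of freedom of the fit (2.15 for the 10 genes). RPKM were compared as log2(RPKM + 1) for genes with a mean of at least 1 RPKM: 10473 genes in Tregs, 10021 in CD8+ T cells, and 10457 between cell types. CD8+ groups have 1 library, so no test was run on them. The interval of counting error is not given, as replicate spread exceeded it. No 2 libraries held identical values (0 pairs).

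Same-numbered libraries deviated together across genes (r of 0.12 to 0.91 over all contrasts). Unlike numbers had means of -0.41 to -0.12. Deviations from a mean of 3 libraries sum to 0, so these negative means largely follow from the same-number values and add no evidence. From the same-number values the numbers were taken to pair the samples. A fit with the replicate as a block was run beside the unblocked design. Other alternatives were DESeq2 1.42.0, limma 3.58.1 on log2(RPKM + 1), no filter, the longest transcript, fits without each replicate number or library and, for log2 ratios, a pseudocount of 0.1 RPKM and centring on medians. The fits were tested on simulated data with known changes. Promoter sequences came from RefSeq (GRCm38.p6), and gene positions and overlaps from the annotation of the same build.

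The 10 genes and the further lists were chosen with earlier results of these data known. From the lists, genes called in a described comparison were named, up to the 4 with the largest change, together with the 5 genes most like the mean of Cd3d, Cd3e and Cd3g and the 5 most like Cd8a. Tables and figures were made with Python 3.11.15, pandas 2.3.3, numpy 2.4.6 and matplotlib 3.10.9.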

Additional observations from a re-analysis of the deposited data

Results flagged for a closer look

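Some genes of the core had a CD8+ log2 ratio of RPKM + 1 opposite in sign to that of all 3 same-numbered Treg pairs, and with 1 CD8+ library per group the difference between cell types was not tested. For Lck, IL-2-REH against IL-2 was -0.16 at 90 min and -0.03 at 4 hr in CD8+ T cells, where all 3 Treg pairs were positive. For Lck from 90 min to 4 hr, the CD8+ ratio was 0.09 for IL-2, and for IL-2-REH it was 0.22, where all 3 Treg pairs were negative. For Cd8a at 4 hr, IL-2-REH was at -0.97 against unstimulated CD8+ T cells and at -0.64 against IL-2, where the Treg pairs were positive at levels of at most 1.84 RPKM. For Cd8b1, IL-2-REH at 4 hr was at -0.70 against unstimulated CD8+ T cells, where the Treg pairs were at 0.02, 0.14 and 0.69.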

How the results depend on the processing

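With the replicate block, edgeR called 5 of the 10 genes after IL-2 at 4 hr and 1 after IL-2-REH at 4 hr, and 275, 32, 1038 and 455 genes in all after IL-2 and IL-2-REH at 90 min and 4 hr, 10 for IL-2-REH against IL-2 at 4 hr, and 58 and 6 from 90 min to 4 hr; the block changed no call of a member other than those of Cd3d, Lck and Lat. DESeq2 called 1, 5, 1 and 1 members (IL-2 at 90 min, IL-2 at 4 hr, IL-2-REH at 4 hr, IL-2 from 90 min to 4 hr), and 559, 111, 1010, 583, 13, 56, 383 and 253 genes over the comparisons in order. Limma called 5 members after IL-2 at 4 hr, and 0, 25, 0, 0 and 3 genes after IL-2-REH at 90 min and 4 hr, between cytokines at both times, and for IL-2 over time (3 without a filter). Members called after IL-2 at 4 hr were 0 to 4 over fits without a replicate number or library, and 0 to 2 after IL-2-REH at 4 hr, 2 without the libraries numbered 1 (Lck and Cd4). Genes called without 1 replicate number or library numbered 0 to 2509 (IL-2, 90 min), 0 to 2269 (IL-2-REH, 90 min), 3 to 1937 (IL-2, 4 hr), 0 to 1545 (IL-2-REH, 4 hr), 0 to 1 and 0 to 5 between cytokines at 90 min and 4 hr, and 0 to 625 and 0 to 574 from 90 min to 4 hr for IL-2 and IL-2-REH. In CD8+ T cells, a pseudocount of 0.1 RPKM gave 1211, 1363, 759 and 1048 genes past 1 against unstimulated cells, 147 and 371 between cytokines and 369 and 480 between times, and centring left 1 member past 1 after IL-2 at 90 min and 0 at 4 hr.

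Small changes that passed no test turned sign. Cd247 did with the longest transcript (-0.057 and 0.27 after IL-2 at 90 min and 4 hr, -0.075 after IL-2-REH at 4 hr, -0.35 for IL-2-REH against IL-2 at 4 hr, 0.33 for IL-2 from 90 min to 4 hr) and with limma (-0.067 after IL-2 at 90 min). With limma, Cd3d and Cd3g also did for IL-2-REH from 90 min to 4 hr (0.046 and 0.014). Over fits without 1 library or replicate number, log2 fold changes that turned sign had these ranges. After IL-2 at 90 min, the ranges were Cd247 -0.018 to 0.14, Zap70 -0.21 to 0.0096, Cd8a -0.97 to 1.12 and Cd8b1 -0.18 to 0.034. After IL-2-REH at 90 min, the ranges were Cd247 -0.11 to 0.033, Zap70 -0.22 to 0.040, Cd8a -0.51 to 1.21 and Cd8b1 -0.23 to 0.0084. After IL-2 at 4 hr, the ranges were Cd247 -0.18 to 0.22 and Cd8a -1.18 to 1.01. After IL-2-REH at 4 hr, the range was Cd8a -0.73 to 2.47. For IL-2-REH against IL-2 at 90 min, the ranges were Cd3e -0.23 to 0.30, Lck -0.10 to 0.32, Zap70 -0.13 to 0.13, Lat -0.12 to 0.44, Cd8a -0.53 to 1.09 and Cd8b1 -0.13 to 0.058. For IL-2-REH against IL-2 at 4 hr, the ranges were Cd247 -0.10 to 0.27, Zap70 -0.37 to 0.21 and Cd8a -0.62 to 2.51. From 90 min to 4 hr of IL-2, the ranges were Cd247 -0.22 to 0.077, Zap70 -0.55 to 0.026, Lat -0.66 to 0.020 and Cd8a -1.19 to 0.86. From 90 min to 4 hr of IL-2-REH, the ranges were Cd3d -0.24 to 0.11, Cd3e -0.47 to 0.016, Cd3g -0.22 to 0.13 and Cd8a -0.85 to 1.84. The cause of these shifts was not tested. Depth limits Cd8a in Tregs, with 13 to 348 reads.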
